A study of Mus musculus with 6 samples.

Results

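RNA-seq of colony-forming unit fibroblast (CFU-F) colonies measured 62 genes that encode cyclins, cyclin-dependent kinases (CDKs), CDK inhibitors, E2F transcription factors, retinoblastoma family proteins, CDC25 phosphatases and SKP2. They were taken by gene symbol from the 14735 genes of the expression table and were divided by role into 20 activators of the division cycle, 15 inhibitors and 27 cyclins and CDKs that act in transcription or elsewhere. Colonies labelled Tomato, here tdTOMATO+ CFU-Fs (n = 3), were set against colonies labelled NonTomato, here tdTOMATO- CFU-Fs (n = 3). Both were grown under hypoxia from bone marrow of *Col10a1Cre; R26-tdTomato* mice aged 2 months, and each colony was ringed with a cloning cylinder at day 10 and lysed in place.

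Every mouse carried both alleles, so the groups differ in whether the reporter was on and not in genotype. The Cre is driven by *Col10a1*, a gene of hypertrophic chondrocytes, and it switches on tdTOMATO permanently in a cell and its descendants. Colonies are grown from mixed marrow and can hold cells other than the founder's progeny. The labels do not say whether the 3 colonies of a group came from separate mice, so p-values measure only the spread between these colonies.

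In the division cycle, D cyclins with CDK4 or CDK6, and then E cyclins with CDK2, phosphorylate the retinoblastoma proteins and release E2F factors that switch on genes for DNA replication. A and B cyclins with CDK1 then drive the cell into mitosis, after CDC25 phosphatases have removed inhibitory phosphates from the kinase. INK4 proteins block CDK4 and CDK6, CIP/KIP proteins bind cyclin-CDK complexes more broadly, and the balance of these proteins sets whether stromal progenitors in culture divide or rest.

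Libraries held between 24085516 and 31046589 reads in genes. Pearson's r of log2 values between libraries was 0.979 to 0.986 among tdTOMATO+ colonies, 0.972 to 0.978 among tdTOMATO- colonies, and 0.970 to 0.980 between the groups, across genes, which are not independent replicates. Of 17 macrophage and monocyte markers, 17 were measured and 12 rose by limma, with summed normalized counts of 82750 to 86912 in tdTOMATO+ colonies and 47379 to 48252 in tdTOMATO- colonies. Of 10 pan-leukocyte markers, 9 were measured and 7 rose, with sums of 17756 to 22029 in tdTOMATO+ colonies and 11803 to 13069 in tdTOMATO- colonies. The 11 skeletal stroma markers summed to 1067730 to 1334240 in tdTOMATO+ colonies and 1275450 to 1454250 in tdTOMATO- colonies, mostly from *Col1a1* and *Col1a2*. None passed by limma or edgeR (3 had an unadjusted p under 0.05 and 2 passed by DESeq2). *Lepr* had 408, 354 and 1132 normalized counts in tdTOMATO+ colonies and 97.3, 69.4 and 108 in tdTOMATO- colonies (DESeq2 adjusted p = 4.9e-09). *Runx2* was also higher without overlap (DESeq2 adjusted p = 0.00664). *Col3a1*, with an unadjusted p under 0.05 by limma, was lower with overlap. Endothelial markers were low, with 4 of 5 measured and sums of 151 to 213 in tdTOMATO+ colonies and 102 to 161 in tdTOMATO- colonies. *Kdr* was the highest of them in every colony. *Col10a1*, whose promoter drives the Cre, had 634, 521 and 529 normalized counts in tdTOMATO+ colonies and 597, 1178 and 799 in tdTOMATO- colonies. Of 8 osteoclast markers, 6 were measured and 1 rose by limma, with a median log2 fold change of 1.91. Of the 6, 3 were higher without overlap (against 9.89% of all genes) and 2 were below 0. Of 5 hypertrophic chondrocyte markers 4 were below 0 (median -0.77) and none passed by limma, but *Sox9* was lower by DESeq2 (adjusted p = 0.00807). Stroma and macrophage transcripts were both present in every library. Among these lists, only the macrophage and leukocyte lists had most of their genes called by limma.

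No member passed the test between the groups. With limma on log2(normalized count + 1) and Benjamini-Hochberg adjustment across the whole table, 0 of 62 members had an adjusted p under 0.05, against 1.34% of all genes (1.2% higher and 0.143% lower). edgeR also called 0 members, against 1.28% of all genes (1.15% higher and 0.129% lower). DESeq2 called 2 of 62 (3.23%), *Cdk6* and *Rb1*, both higher. Of the 14155 genes to which DESeq2 gave an adjusted p, it called 4.64% (3.52% higher and 1.12% lower). At an unadjusted p under 0.05, limma gave 6 of 62 members (9.68%), against 12.3% of all genes. Of these, 4 were higher, against 7.53% of all genes, and 2 were lower, against 4.79%. The tdTOMATO+ and tdTOMATO- colonies had separate ranges for 7 of 62 members (11.3%), against 18.2% of all genes, with 5 higher against 9.89% and 2 lower against 8.33%. By each of these counts the members separated by reporter no more often than genes at large. The 7 with separate ranges were *Ccnd1*, *Cdk6*, *E2f2*, *Rb1* and *Cdk19*, which were higher, and *Ccnd3* and *Cdk16*, which were lower. Macrophage marker sums separated the same colonies, and their part in these 7 differences was not tested.

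The intervals were narrow for most members. The 95% interval of the fold change lay within 2-fold in both directions for 57 of 62 members (91.9%), against 73% of all genes, and within 1.5-fold for 51 of 62 (82.3%), against 56.7%. Expression level was not matched in this comparison. The median SD within groups on the log2 scale was 0.166 over the members and 0.171 over all genes. The 5 members whose intervals reached past 2-fold were *Cdk6*, whose interval was not wide but lay high at 0.40 to 1.03 on the log2 scale, and *Cdkn1c*, *Cdkn2a*, *Ccno* and *Cdk15*. *Ccno* and *Cdk15* were the lowest members, each with under 23 normalized counts in every colony. The median log2 fold change was -0.09 over the 20 activators, 0.02 over the 15 inhibitors and 0.06 over the other 27, against -0.0046 over all genes. Together the members took 0.621%, 0.622% and 0.628% of reads in tdTOMATO+ colonies and 0.587%, 0.593% and 0.486% in tdTOMATO- colonies, which did not overlap (exact permutation p = 0.1, the smallest that 3 against 3 allows). Most of this share came from *Ccnd1*, *Ccnd2*, *Ccng1* and the inhibitor *Cdkn1a*. Each of these was lowest in tdTOMATO- replicate 3, so the share says little about the less abundant members.

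**Figure D1:**
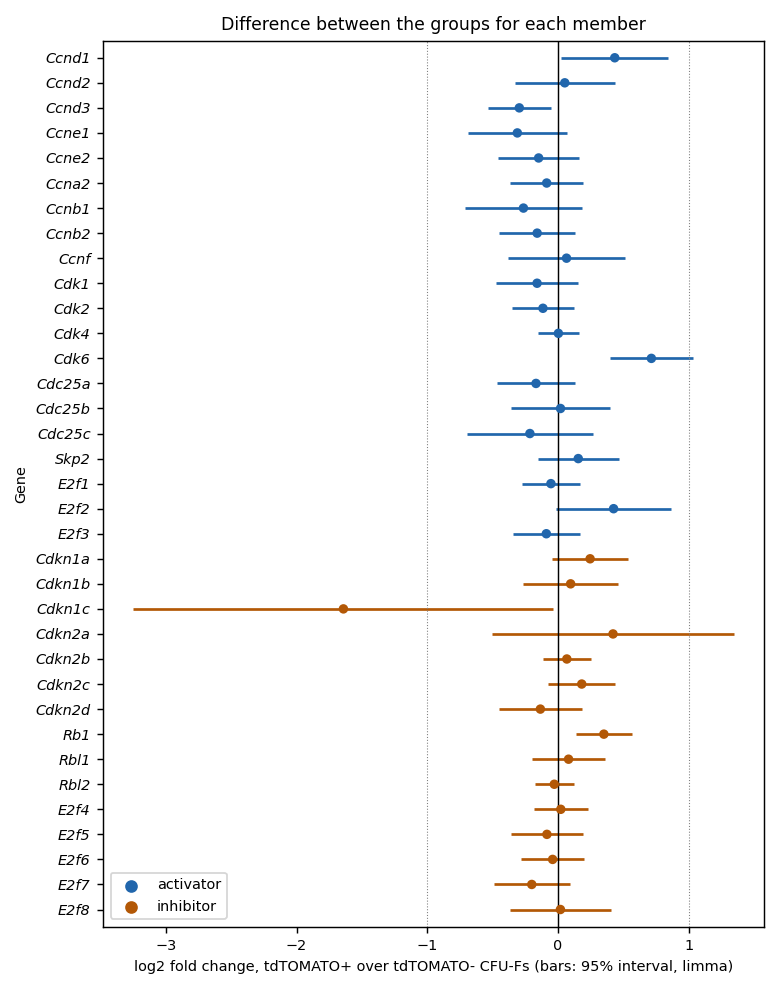
Log2 fold change (x axis, tdTOMATO+ over tdTOMATO- colonies) of the 20 activators (blue) and 15 inhibitors (orange) of the division cycle, with 95% intervals from limma over 3 colonies a group. *Cdk6* stands highest at 0.71, *Cdkn1c* lowest at -1.64 with the widest interval, and most other intervals cross 0 and stay between the dotted lines at 2-fold.

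D cyclins are made in response to growth factors and are the first cyclins a resting cell makes on entry into the cycle. *Ccnd1* (cyclin D1, chromosome 7) had 28113, 28662 and 31475 normalized counts in tdTOMATO+ colonies, against 24218, 26046 and 16328 in tdTOMATO- colonies. The 3 tdTOMATO+ colonies all lay above the 3 tdTOMATO- colonies, and tdTOMATO- replicate 3 was well below the rest. The means were 29417 ± 1804 in tdTOMATO+ colonies and 22198 ± 5165 in tdTOMATO- colonies (SD, n = 3 each), a log2 fold change of 0.43 (SE 0.17, limma adjusted p = 0.374). Without tdTOMATO- replicate 3 the log2 fold change of *Ccnd1* was 0.23. In these bulk libraries, fewer cells of a type and less RNA per cell cannot be told apart.

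*Ccnd2* (cyclin D2) had 32146, 34640 and 34210 normalized counts in tdTOMATO+ colonies and 38146, 36328 and 24716 in tdTOMATO- colonies. The ranges overlapped, tdTOMATO- replicate 3 was again the lowest colony, and the log2 fold change was 0.05 (95% interval -0.33 to 0.43, limma adjusted p = 0.944). *Ccnd3* (cyclin D3) went the other way from *Ccnd1*, with 1289, 1207 and 1218 normalized counts in tdTOMATO+ colonies, against 1745, 1518 and 1325 in tdTOMATO- colonies. All 3 tdTOMATO+ colonies lay below the tdTOMATO- colonies. The log2 fold change of *Ccnd3* was -0.30 (SE 0.10, limma adjusted p = 0.295).

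Per kilobase of exon, the 3 D cyclins held different shares in these tdTOMATO+ and tdTOMATO- colonies. The shares were chosen after the values were seen, when *Ccnd1* and *Ccnd3* counts were known to separate the groups. *Ccnd1* made up 62.6%, 61.4% and 63.9% of D cyclin transcript in tdTOMATO+ colonies and 54.7%, 57.8% and 55.5% in tdTOMATO- colonies, a difference of 6.63 percentage points between the means of 62.7% ± 1.23 in tdTOMATO+ colonies and 56.0% ± 1.61 in tdTOMATO- colonies (SD, n = 3 each). *Ccnd2* made up 35.9% ± 1.20 in tdTOMATO+ colonies and 41.9% ± 1.40 in tdTOMATO- colonies, and *Ccnd3* made up 1.42% ± 0.110 in tdTOMATO+ colonies and 2.11% ± 0.304 in tdTOMATO- colonies. None of these shares overlapped between the groups. Since a share is taken within a colony, the low total in tdTOMATO- replicate 3 does not enter it, and that replicate's *Ccnd1* share lay between those of the other tdTOMATO- colonies. The exact two-sided permutation test gave p = 0.1 for each share, the smallest that 3 against 3 allows, and 0.1 after adjustment over the 6 shares compared. The 3 D cyclin shares of a colony make up a whole, so they are not separate tests. Macrophage marker sums separated the same colonies, and their part in these shares was not tested.

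**Figure D2:**
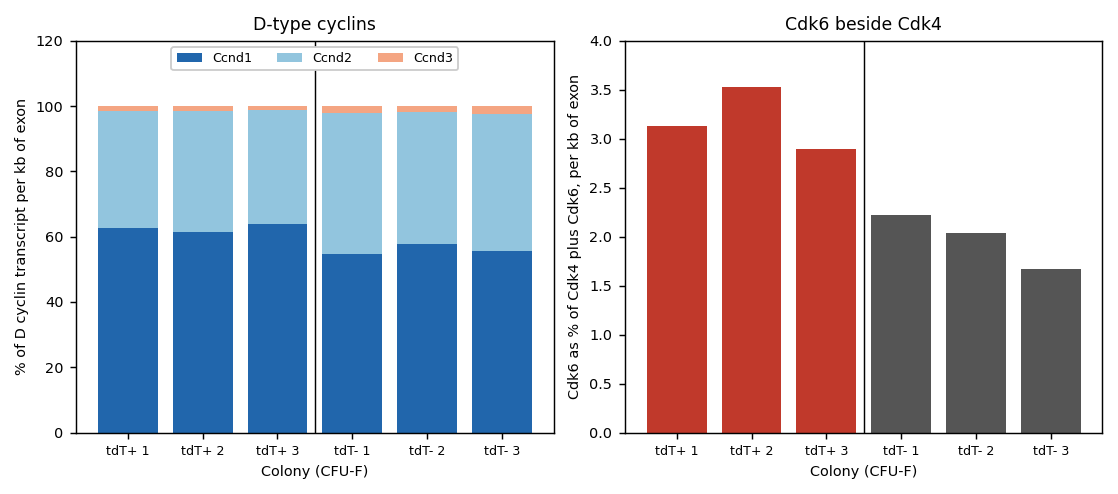
Left, the share of *Ccnd1*, *Ccnd2* and *Ccnd3* in D cyclin transcript (y axis, % of normalized counts per kb of exon) in each colony. Right, *Cdk6* as a percentage of *Cdk4* plus *Cdk6* per kb. *Ccnd1* took 61.4% to 63.9% in the 3 tdTOMATO+ colonies (left of each line) and 54.7% to 57.8% in the 3 tdTOMATO- colonies, and the *Cdk6* share was at least 2.89% in tdTOMATO+ colonies and at most 2.22% in tdTOMATO- colonies.

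E cyclins pair with CDK2 as cells commit to replication, and both were lower in the mean in tdTOMATO+ colonies with overlapping colonies. *Ccne1* had 311, 330 and 294 normalized counts in tdTOMATO+ colonies and 319, 491 and 370 in tdTOMATO- colonies (log2 fold change -0.31, 95% interval -0.69 to 0.07, limma adjusted p = 0.507). *Ccne2* had 672, 631 and 548 in tdTOMATO+ colonies and 571, 759 and 731 in tdTOMATO- colonies (log2 fold change -0.15, 95% interval -0.46 to 0.16, limma adjusted p = 0.749). Over the 5 D and E cyclins the median log2 fold change was -0.15, with 2 of 5 above 0.

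*Cdk6*, the D cyclin partner kinase on chromosome 5, was the member with the smallest p. It had 736, 778 and 683 normalized counts in tdTOMATO+ colonies, against 529, 451 and 371 in tdTOMATO- colonies. The lowest tdTOMATO+ colony was above the highest tdTOMATO- colony. Means were 732 ± 47.4 in tdTOMATO+ colonies and 450.3 ± 79.1 in tdTOMATO- colonies (SD, n = 3 each), a ratio of 1.64 on the fitted log2 scale (log2 fold change 0.71, SE 0.14, 95% interval 0.40 to 1.03). *Cdk6* stood at rank 232 of 14735 by p, with an unadjusted p of 0.000928, and its adjusted p was 0.0584 by limma, 0.0592 by edgeR and 0.000698 by DESeq2.

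The *Cdk6* call turned on the method and on 1 colony. With the libraries scaled to equal totals the limma adjusted p was 0.0426, and without tdTOMATO- replicate 1 it was 0.0241. Leaving out any other colony gave 0.0865 to 0.239, with a log2 fold change between 0.58 and 0.76. Macrophage marker sums were higher in the same 3 colonies, 82750 to 86912 in tdTOMATO+ colonies and 47379 to 48252 in tdTOMATO- colonies, and their part in the *Cdk6* difference was not tested.

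*Cdk4*, which shares the D cyclins with *Cdk6*, differed least between the groups among the 4 cell cycle kinases. It had 5301, 4944 and 5329 normalized counts in tdTOMATO+ colonies and 5419, 5051 and 5078 in tdTOMATO- colonies. The means, 5191 ± 214 in tdTOMATO+ colonies and 5182 ± 205 in tdTOMATO- colonies (SD, n = 3 each), differed by a log2 fold change of 0.00 with a 95% interval of -0.15 to 0.16 (limma adjusted p = 0.992). Per kilobase, the *Cdk4* level was 1598 in tdTOMATO+ colonies and 1595 in tdTOMATO- colonies, and the *Cdk6* level was 52.4 in tdTOMATO+ colonies and 32.2 in tdTOMATO- colonies. *Cdk6* was thus the minor kinase of the pair in every colony, at 3.12%, 3.53% and 2.89% of their sum in tdTOMATO+ colonies and 2.22%, 2.03% and 1.67% in tdTOMATO- colonies (exact permutation p = 0.1, the smallest possible). This share was also chosen after the values were seen.

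*Cdk2*, the partner of cyclins E and A, had 744, 757 and 618 normalized counts in tdTOMATO+ colonies and 747, 804 and 739 in tdTOMATO- colonies, which overlapped (log2 fold change -0.12, 95% interval -0.35 to 0.12). *Cdk1*, the mitotic kinase, had 1115, 1056 and 830 in tdTOMATO+ colonies and 977, 1227 and 1139 in tdTOMATO- colonies (log2 fold change -0.16, 95% interval -0.47 to 0.15, limma adjusted p = 0.724). Its lowest colonies were tdTOMATO+ replicate 3 and tdTOMATO- replicate 1, one from each group.

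**Figure D3:**
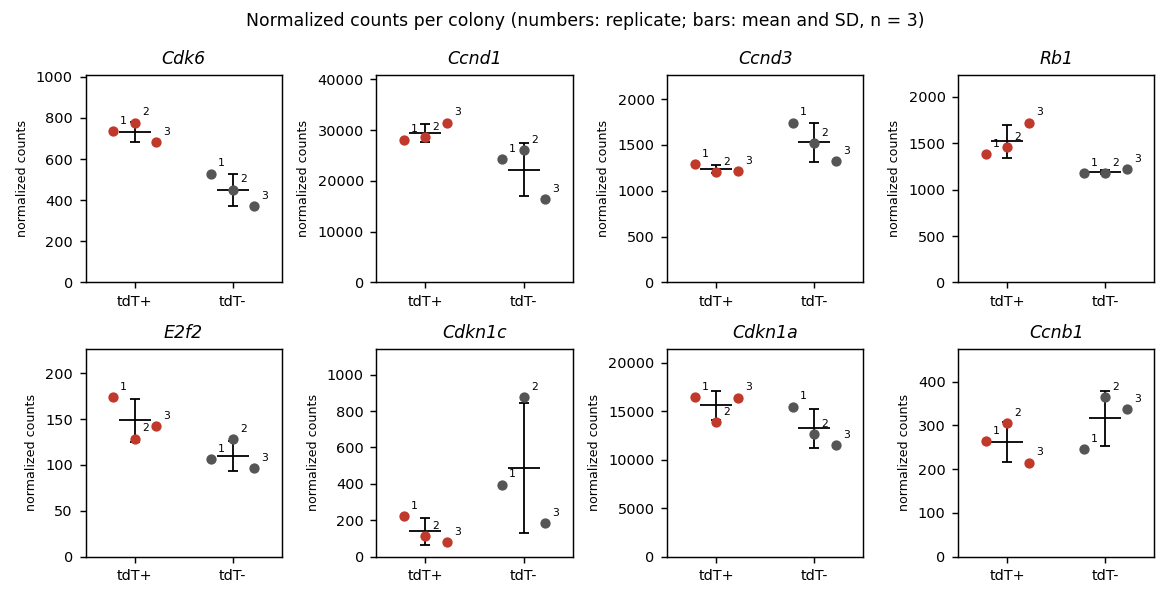
Normalized counts (y axes, from 0) of 8 members in each tdTOMATO+ colony (tdT+, red) and tdTOMATO- colony (tdT-, grey), numbered by replicate, with the mean and SD of 3 colonies. *Cdk6*, *Ccnd1*, *Rb1* and *E2f2* are higher and *Ccnd3* is lower in all 3 tdTOMATO+ colonies, while *Cdkn1c*, *Cdkn1a* and *Ccnb1* overlap.

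The mitotic cyclins varied within each group as well as between the groups. *Ccnb1* (cyclin B1) had 265, 305 and 215 normalized counts in tdTOMATO+ colonies and 245, 365 and 338 in tdTOMATO- colonies (log2 fold change -0.26, 95% interval -0.71 to 0.18, limma adjusted p = 0.669). *Ccnb2* (cyclin B2) had 542, 541 and 458 in tdTOMATO+ colonies and 497, 584 and 646 in tdTOMATO- colonies (log2 fold change -0.16, 95% interval -0.45 to 0.13). In both genes the lowest tdTOMATO+ colony was replicate 3 and the lowest tdTOMATO- colony was replicate 1.

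*Ccna2* (cyclin A2, active in replication and at mitotic entry) had 1479, 1255 and 1134 in tdTOMATO+ colonies and 1214, 1392 and 1493 in tdTOMATO- colonies (log2 fold change -0.09, 95% interval -0.36 to 0.19). *Ccnf* (cyclin F, a ubiquitin ligase subunit rather than a CDK partner) had 407, 433 and 444 in tdTOMATO+ colonies and 295, 488 and 475 in tdTOMATO- colonies (log2 fold change 0.06, 95% interval -0.39 to 0.51). All 4 genes had their lowest tdTOMATO- value in replicate 1, and 3 of 4 their lowest tdTOMATO+ value in replicate 3. Over all genes, tdTOMATO- replicate 1 was lowest of its group for 5272 of 14735 and tdTOMATO+ replicate 3 for 5394.

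Promoters of genes that peak in mitosis are known for CCAAT boxes, bound by NF-Y, and a CHR element, bound by the DREAM and B-MYB complexes that repress them in resting cells and activate them later. The sequences below are shown because *Ccnb1*, *Ccnb2*, *Ccnf* and *Cdk1* belong to this set and had their low tdTOMATO- colony in common. They are RefSeq upstream sequence of GRCm38.p6, 5′ to 3′ on the gene's strand, up to 250 bases before the RefSeq start and ended before the first annotated exon base. Capitals mark matches on either strand to the CHR, whose letters were TTTGAA, to the CCAAT box and to an E2F word. A box on the opposite strand reads ATTGG. An E2F word was TTCCCGC in its first form, TTGGCGC in another form, TTCGCGC in a further form and TTGCCGC in the last form.
Ccnb1, chr13:100786571-100786736, minus strand: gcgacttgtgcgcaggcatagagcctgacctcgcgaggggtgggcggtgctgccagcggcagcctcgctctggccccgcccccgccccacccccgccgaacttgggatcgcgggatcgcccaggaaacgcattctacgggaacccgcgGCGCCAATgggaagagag
Ccnb2, chr9:70421555-70421804, minus strand: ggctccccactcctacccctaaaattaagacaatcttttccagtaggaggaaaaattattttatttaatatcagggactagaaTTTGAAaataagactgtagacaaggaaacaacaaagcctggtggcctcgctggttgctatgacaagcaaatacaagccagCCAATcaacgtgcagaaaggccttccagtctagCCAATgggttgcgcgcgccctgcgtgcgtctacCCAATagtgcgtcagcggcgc
Ccnf, chr17:24251485-24251659, minus strand: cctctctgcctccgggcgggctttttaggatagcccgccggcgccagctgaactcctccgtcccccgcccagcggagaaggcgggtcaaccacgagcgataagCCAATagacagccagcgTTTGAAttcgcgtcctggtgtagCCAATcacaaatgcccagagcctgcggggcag
Cdk1, chr10:69352939-69353162, minus strand: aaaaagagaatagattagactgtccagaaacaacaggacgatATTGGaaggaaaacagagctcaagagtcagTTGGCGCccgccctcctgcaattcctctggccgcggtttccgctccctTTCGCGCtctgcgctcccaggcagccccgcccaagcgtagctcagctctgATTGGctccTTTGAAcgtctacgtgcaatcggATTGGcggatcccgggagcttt

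In *Ccnb1* the capitals hold an E2F word on the other strand (GCGCCAA) that overlaps a CCAAT box. *Ccnb2* held 3 CCAAT boxes, beginning 87, 54 and 21 bases before the start, and *Cdk1* held 3 on the other strand. A CHR word began 71 bases before the *Cdk1* start, and another began 15 bases before it, in the stretch that is not printed. Such stretches also held a CCAAT box 67 bases before the *Ccnb1* start and a CHR word 14 bases before the *Ccnf* start. No CHR word was found in the *Ccnb1* window. Of the 62 members, 48 matched the promoter table by symbol, with 56 promoters. The CHR word was in 19.6% of these 56 promoters and in 16% of all 32851 promoters of that length, the CCAAT box in 46.4% and 33.8%, and an E2F word in 19.6% and 7.89%. A pair of CCAAT boxes on 1 strand with starts 32 or 33 bases apart was in 4 of the 56 (7.14%) and in 0.42% of all promoters. These are matches of letters, not measured binding, and members were chosen by name and not by sequence.

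The phosphatases and SKP2, the ubiquitin ligase subunit that marks p27 for destruction, also overlapped between the groups. *Cdc25a* had 511, 514 and 479 normalized counts in tdTOMATO+ colonies and 467, 646 and 593 in tdTOMATO- colonies (log2 fold change -0.17, 95% interval -0.47 to 0.13). *Cdc25b* had 403, 388 and 446 in tdTOMATO+ colonies and 322, 419 and 497 in tdTOMATO- colonies (log2 fold change 0.02, 95% interval -0.36 to 0.40). *Cdc25c* had 139, 166 and 113 in tdTOMATO+ colonies and 133, 161 and 191 in tdTOMATO- colonies (log2 fold change -0.22, 95% interval -0.70 to 0.26). For all 3 phosphatases tdTOMATO- replicate 1 was the lowest of its group. *Skp2* had 593, 494 and 538 in tdTOMATO+ colonies and 406, 540 and 520 in tdTOMATO- colonies (log2 fold change 0.15, 95% interval -0.15 to 0.46), again lowest in tdTOMATO- replicate 1.

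**Figure D4:**
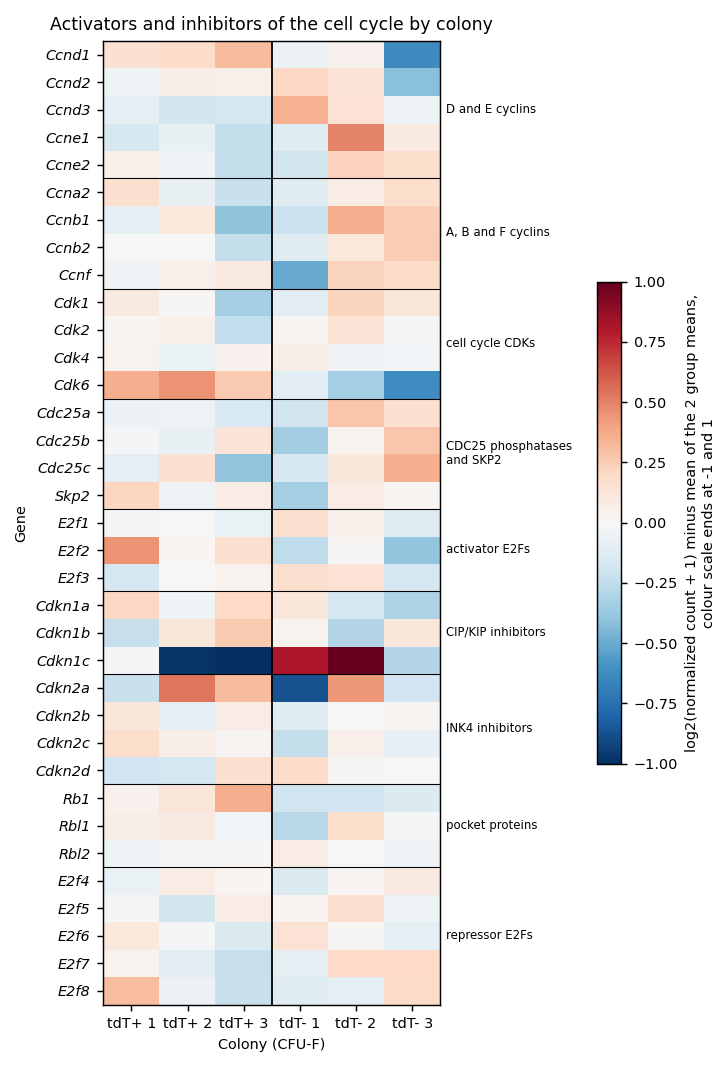
Log2(normalized count + 1) of each activator and inhibitor (rows, by role) in each colony (columns, tdTOMATO+ left of the black line), as the difference from the mean of the 2 group means, with the colour scale ending at -1 and 1. *Cdk6* and *Rb1* split by group, the A, B and F cyclins and *Cdk1* are low in tdT- 1 and mostly in tdT+ 3, and *Cdkn1c* and *Cdkn2a* vary most within the groups.

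Among the E2Fs that activate transcription, *E2f2* alone separated the groups. It had 174, 129 and 143 normalized counts in tdTOMATO+ colonies, against 106, 128 and 96.2 in tdTOMATO- colonies. The gap was narrow, since tdTOMATO+ replicate 2 and tdTOMATO- replicate 2 were nearly equal. The log2 fold change of *E2f2* was 0.42 (95% interval -0.01 to 0.86, limma adjusted p = 0.421). *E2f1* had 623, 632 and 604 in tdTOMATO+ colonies and 705, 656 and 576 in tdTOMATO- colonies (log2 fold change -0.05, 95% interval -0.28 to 0.17). *E2f3* had 806, 906 and 930 in tdTOMATO+ colonies and 1012, 1002 and 809 in tdTOMATO- colonies (log2 fold change -0.09, 95% interval -0.35 to 0.17).

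Of the CIP/KIP inhibitors, *Cdkn1a* (p21, a p53 target) was one of the most abundant members, with 16486, 13902 and 16399 normalized counts in tdTOMATO+ colonies and 15487, 12650 and 11528 in tdTOMATO- colonies. The ranges overlapped and the log2 fold change was 0.24 (95% interval -0.05 to 0.54, limma adjusted p = 0.493). Per kilobase, the *Cdkn1a* level was 4389 in tdTOMATO+ colonies and 3721 in tdTOMATO- colonies, and only *Ccnd1* and *Ccng1* had a higher level per kilobase among the members. *Cdkn1b* (p27) had 1302, 1659 and 1831 normalized counts in tdTOMATO+ colonies and 1570, 1247 and 1654 in tdTOMATO- colonies (log2 fold change 0.10, 95% interval -0.27 to 0.46).

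*Cdkn1c* (p57, an imprinted inhibitor expressed from the maternal allele) varied most. It had 224, 114 and 81.4 normalized counts in tdTOMATO+ colonies, against 396, 878 and 184 in tdTOMATO- colonies. The ranges overlapped, and the highest colony exceeded the lowest 2.75-fold within tdTOMATO+ colonies and 4.76-fold within tdTOMATO- colonies. The log2 fold change was -1.64 (SE 0.65, 95% interval -3.25 to -0.04), with an adjusted p of 0.394 by limma, 0.366 by edgeR and 0.187 by DESeq2. It was -1.08 without tdTOMATO- replicate 2 and -2.20 without tdTOMATO- replicate 3. Of CIP/KIP transcript per kilobase, *Cdkn1c* was 2.18%, 1.29% and 0.789% in tdTOMATO+ colonies and 3.97%, 10.1% and 2.45% in tdTOMATO- colonies. None of these shares overlapped between the groups (exact permutation p = 0.1, the smallest possible). The share was chosen after the values were seen, and the *Cdkn1c* counts themselves overlapped, so its separation is no independent test.

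The INK4 inhibitors did not separate the groups. *Cdkn2a*, whose single gene encodes both p16 and ARF and whose counts cannot tell them apart, had 1917, 3243 and 2780 normalized counts in tdTOMATO+ colonies and 1218, 3020 and 1959 in tdTOMATO- colonies. Its spread was wide in both groups (log2 fold change 0.42, 95% interval -0.51 to 1.35, limma adjusted p = 0.755). *Cdkn2b* (p15) was far steadier, with 2059, 1792 and 2005 in tdTOMATO+ colonies and 1754, 1900 and 1930 in tdTOMATO- colonies (log2 fold change 0.07, 95% interval -0.12 to 0.25). *Cdkn2c* (p18) had 426, 393 and 384 in tdTOMATO+ colonies and 319, 389 and 355 in tdTOMATO- colonies, with 1 tdTOMATO+ colony below the highest tdTOMATO- colony (log2 fold change 0.18, 95% interval -0.07 to 0.44). *Cdkn2d* (p19) had 230, 232 and 293 in tdTOMATO+ colonies and 298, 265 and 264 in tdTOMATO- colonies (log2 fold change -0.14, 95% interval -0.45 to 0.18).

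Of the pocket proteins, which bind E2Fs and hold cells in G1, *Rb1* separated the groups. *Rb1* (chromosome 14) had 1386, 1461 and 1724 normalized counts in tdTOMATO+ colonies, against 1175, 1176 and 1220 in tdTOMATO- colonies. The tdTOMATO- colonies were within 1.04-fold of each other and all lay below the tdTOMATO+ colonies. Means were 1524 ± 178 in tdTOMATO+ colonies and 1190.2 ± 25.6 in tdTOMATO- colonies (SD, n = 3 each), with a log2 fold change of 0.35 (SE 0.09, 95% interval 0.14 to 0.56). The adjusted p was 0.156 by limma, 0.149 by edgeR and 0.0495 by DESeq2.

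The related *Rbl1* (p107) had 795, 815 and 751 in tdTOMATO+ colonies and 632, 864 and 754 in tdTOMATO- colonies (log2 fold change 0.08, 95% interval -0.20 to 0.36). *Rbl2* (p130, the pocket protein of resting cells) had 1376, 1412 and 1430 in tdTOMATO+ colonies and 1495, 1428 and 1383 in tdTOMATO- colonies (log2 fold change -0.03, 95% interval -0.18 to 0.12). Neither separated the groups, and the interval of *Rbl2* was among the tightest of the inhibitors. Exons of *Rb1* overlap the opposite-strand genes *Rcbtb2* by 488 bases and *Lpar6* by 408 bases, those of *Ccnd1* overlap *LTO1* by 1100 bases and those of *Ccnd3* overlap *Bysl* by 361 bases. Other members have such overlaps too. Among them are *Cdk4* with *Tspan31* (641 bases), *Cdk6* with *Gm17590* (368), *Rbl2* with *Aktip* (693), *Cdkn1c* with *Gm44732* (625), *Ccne2* with *Ints8* (609) and *Ccna2* with *Exosc9* (510). The levels and shares per kilobase carry the same limit. Whether reads were counted by strand is not stated, so reads from such stretches cannot be assigned between the overlapping genes.

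The repressor E2Fs stayed close to 0, at -0.20 to 0.02 on the log2 scale over 5 genes (median -0.04). *E2f7*, an atypical E2F that represses replication genes late in S phase, was the lowest, with 397, 360 and 330 normalized counts in tdTOMATO+ colonies and 362, 445 and 445 in tdTOMATO- colonies (95% interval -0.49 to 0.09). Its relative *E2f8* had 395, 304 and 272 in tdTOMATO+ colonies and 292, 297 and 364 in tdTOMATO- colonies. *E2f4*, the main partner of p130, had 737, 813 and 785 in tdTOMATO+ colonies and 699.6, 785 and 821 in tdTOMATO- colonies. All of these overlapped between the groups. *E2f5* had 297, 264 and 318 in tdTOMATO+ colonies and 305, 337 and 289.7 in tdTOMATO- colonies, and *E2f6* had 609, 557 and 511 in tdTOMATO+ colonies and 625, 571 and 531 in tdTOMATO- colonies.

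Cyclins and CDKs of the transcription machinery (13 genes) had a median log2 fold change of 0.01, with 7 above 0 and a range of -0.15 to 0.23. *Cdk19*, a kinase of the Mediator complex, separated the groups with 966, 885 and 911 normalized counts in tdTOMATO+ colonies, against 793, 775 and 785 in tdTOMATO- colonies (log2 fold change 0.23, SE 0.07, limma adjusted p = 0.23). Its close relative *Cdk8* had a log2 fold change of -0.15. *Ccnl1*, a cyclin linked to splicing, had 1612, 1871 and 1308 in tdTOMATO+ colonies and 1549, 1220 and 1281 in tdTOMATO- colonies, which overlapped. *Cdk9*, the elongation kinase, had 1170, 1240 and 1264 in tdTOMATO+ colonies and 1213, 1112 and 1048 in tdTOMATO- colonies, and its cyclins *Ccnt1* and *Ccnt2* had log2 fold changes of 0.06 each.

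The remaining 14 cyclins and CDKs had a median log2 fold change of 0.12, with 10 above 0, and the largest was that of *Ccng1* at 0.23. *Ccng1* (cyclin G1, a p53 target) had 22463, 22980 and 23279 normalized counts in tdTOMATO+ colonies and 19397, 24034 and 16102 in tdTOMATO- colonies (limma adjusted p = 0.593). The tdTOMATO+ colonies lay close together inside the wide tdTOMATO- range. *Cdk16*, an X-linked kinase outside the main cycle, was lower in all 3 tdTOMATO+ colonies, with 3261, 3178 and 3162 normalized counts in tdTOMATO+ colonies, against 3839, 3377 and 3368 in tdTOMATO- colonies (log2 fold change -0.14, limma adjusted p = 0.512). Its relative *Cdk17* had 1268, 1366 and 1279 in tdTOMATO+ colonies and 1285, 1062 and 1193 in tdTOMATO- colonies. Levels per kilobase ran from 6.00 for *Cdk15* to 6523 for *Ccng1* in tdTOMATO+ colonies, and from 5.18 for *Cdk15* to 5650 for *Ccng1* in tdTOMATO- colonies.

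Genes that the cycle switches on also varied by colony, like the A and B cyclins. Of 41 S phase genes none passed by limma, edgeR or DESeq2 (1 higher and 1 lower at an unadjusted p under 0.05 by limma). The median log2 fold change was -0.09 with 8 of 41 above 0, against 7218 of 14735 over all genes. *Rrm1*, a ribonucleotide reductase subunit, had 4017, 4539 and 4470 normalized counts in tdTOMATO+ colonies, against 3485, 3587 and 3963 in tdTOMATO- colonies (log2 fold change 0.24, limma adjusted p = 0.272). *Hells*, a chromatin remodeller, had 597, 552 and 513 in tdTOMATO+ colonies, against 626, 727 and 620.4 in tdTOMATO- colonies (log2 fold change -0.25, limma adjusted p = 0.383). *Blm*, a DNA helicase, also did not overlap and had a log2 fold change of -0.28. These 3 had the smallest p of the list, and they did not share a direction.

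Of 51 G2/M genes none passed by any of the 3 tools and 0 had an unadjusted p under 0.05 by limma. The median was -0.11 with 13 of 51 above 0, against 7218 of 14735 over all genes. *Tpx2* and *Aurka*, a spindle factor and the kinase it activates, had log2 fold changes of -0.25 and -0.33, and *Gas2l3* had 0.26. The median deviation of the list from the middle of the groups was 0.01, 0.03 and -0.20 in the tdTOMATO+ colonies and -0.15, 0.10 and 0.21 in the tdTOMATO- colonies. Replicate 3 was the lowest tdTOMATO+ colony for 40 of 51 genes and replicate 1 the lowest tdTOMATO- colony for 43 of 51. For S phase genes these counts were 33 and 30 of 41. For both lists the range of these medians within each group was wider than the size of the list's median log2 fold change.

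**Figure D5:**
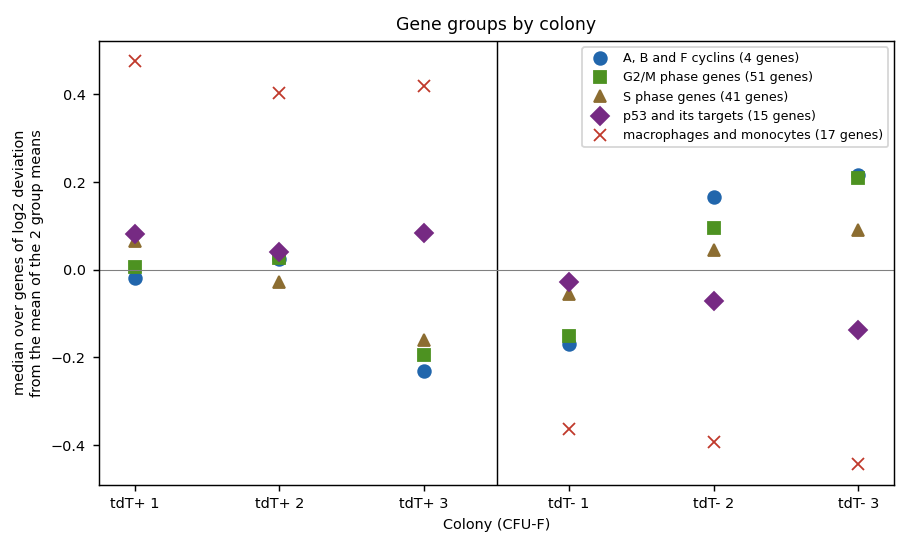
Median over genes of the log2 deviation from the mean of the 2 group means (y axis) for 5 gene groups in each colony (x axis, tdTOMATO+ left of the line). A, B and F cyclins, G2/M genes and S phase genes are low in tdT+ 3 and tdT- 1, whereas macrophage markers lie at 0.40 to 0.48 in the tdTOMATO+ colonies and at -0.44 to -0.36 in the tdTOMATO- colonies.

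Other partners of the machinery did not pass the test either. Of 18 CDK partners and regulators none passed by limma, edgeR or DESeq2, none had an unadjusted p under 0.05 and the median log2 fold change was -0.06. *Cdc20*, which activates the anaphase ubiquitin ligase, had 814, 646 and 576 normalized counts in tdTOMATO+ colonies and 646, 996 and 1047 in tdTOMATO- colonies (log2 fold change -0.38, limma adjusted p = 0.557). *Fbxw7*, which marks cyclin E for destruction, had a log2 fold change of 0.22, and *Fzr1*, the other activator of the anaphase ligase, had -0.17. Of 8 DREAM and MuvB genes none passed either, none had an unadjusted p under 0.05 and the median was -0.12, with *Mybl2* (B-MYB) at -0.37, *Lin54* at -0.17 and *Mybl1* at 0.14.

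p53 switches on *Cdkn1a* and *Ccng1* after DNA damage and other stress, and its list held the only limma call in these pathways. Of 15 genes 1 rose by limma (against 1.2% of all genes), 1 by edgeR (1.15%) and 3 by DESeq2 (3.52% of the genes it gave an adjusted p). At an unadjusted p under 0.05 by limma, 5 were higher (against 7.53% of all genes) and 0 lower (4.79%). The list had 11 of 15 above 0, against 7218 of 14735 over all genes, and a median log2 fold change of 0.14. For 6 of 15 the groups did not overlap, all higher, against 9.89% of all genes. The list was chosen with earlier results of these data known, so these counts are no independent test. *Cdkn1a* and *Ccng1* are members and are not in the list. *Trp53inp1*, a stress-induced p53 partner, had 6157, 5859 and 6460 normalized counts in tdTOMATO+ colonies, against 4409, 4322 and 3947 in tdTOMATO- colonies (log2 fold change 0.54, SE 0.07, limma adjusted p = 0.0193). Without any 1 of 4 colonies (each tdTOMATO+ colony or tdTOMATO- replicate 2) its limma adjusted p was 0.0619 to 0.0907, with a log2 fold change of 0.51 to 0.58. *Mdm2*, the ubiquitin ligase of p53, had 7444, 7509 and 6354 in tdTOMATO+ colonies, against 5306, 5116 and 4473 in tdTOMATO- colonies (log2 fold change 0.52, adjusted p = 0.0559 by limma and 0.000351 by DESeq2).

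*Eda2r*, a receptor gene that p53 activates, had 2387, 2278 and 2431 in tdTOMATO+ colonies, against 1929, 1879 and 1935 in tdTOMATO- colonies (log2 fold change 0.30, adjusted p = 0.0644 by limma and 0.00386 by DESeq2). The groups did not overlap for *Trp53inp1*, *Mdm2* or *Eda2r*, whereas they did for *Cdkn1a* and *Ccng1*. Macrophage marker sums differed between the same colonies, and their part in these values was not tested. Of the 7 mitogen response genes measured none passed by limma, edgeR or DESeq2 (1 lower at an unadjusted p under 0.05 by limma). *Junb*, an AP-1 subunit, was lower without overlap, with 1840, 1996 and 2186 in tdTOMATO+ colonies, against 2213, 3577 and 2872 in tdTOMATO- colonies (log2 fold change -0.50, limma adjusted p = 0.298), while the log2 fold change was 0.35 for *Egr1* and 0.14 for *Myc*.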

How the data were processed

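RNA of 6 CFU-F colonies was sequenced as 50-base single-end reads. By the study's methods, the authors used Trim Galore and Cutadapt to trim reads and STAR for alignment to GRCm38. Reads with 1 location were summed by gene in HTSeq, genes reaching 10 reads in at least one library stayed, and DESeq2 size factors were the divisor. Tool versions and the strand setting are not given in the sources used here. These normalized counts are the signal values that the authors deposited. The authors' own fold changes and p-values are also in the table and were not used.

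All values were whole multiples of a step in each library (100% within 0.001), so reads were recovered as multiples of it, which for replicate 3 of each group rests on a step close to 1. The test was limma 3.58.1 (R 4.3.3, two-sided, no covariate, eBayes run with its trend and robust options) on log2(normalized count + 1) over all 14735 genes, called at a Benjamini-Hochberg adjusted p under 0.05. Fold changes are on that scale, which understates those of low genes. edgeR 4.0.16 (quasi-likelihood, TMM) and DESeq2 1.42.0 on the recovered reads were alternatives, with others on trend, pseudocount (10), low values (a mean of at least 30), scaling (TMM, equal totals), the replicate number as a block and each colony left out. Depth was 24085516 to 31046589 reads, and no interval of counting error is given beside the spread between colonies.

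Members were matched by symbol, and the roles and lists were chosen with earlier results of these data known. *Ccna1*, *Ccnb3*, *Ccnb4*, *Ccnp*, *Ccnq*, *Ccns* and *Cdk3* had no entry by symbol among the measured genes, so they could not be analysed. Named genes are the main cycle regulators and the 3 genes of each role group and list with the smallest limma p; *Cdk8*, *Ccnt1*, *Ccnt2*, *Ccno* and *Cdk15* were added after their values were seen. Lengths are exon unions of GENCODE vM21 (GRCm38), matched by Ensembl ID. The shares of D cyclins, CDK4 and CDK6, and CIP/KIP genes were chosen after values were seen.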

Additional observations from a re-analysis of the deposited data

How the results depend on the processing

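The number of members called higher was 0 with limma and edgeR, 2 with DESeq2, 1 with equal totals and 0 to 1 when a colony was left out (*Cdk6*, without tdTOMATO- replicate 1). Over all genes limma called 177 higher and 21 lower, DESeq2 498 and 159, limma without trend 1 and 0, and the left-out colonies gave 1 to 178 higher and 0 to 44 lower. The calls higher fell to 9, 1 and 103 without tdTOMATO+ replicates 1, 2 and 3, and to 15 and 97 without tdTOMATO- replicates 2 and 3, with fewer samples in each fit. The number of p53 list genes called higher was 1, against 3 with DESeq2, 3 with equal totals, 0 without trend and 0 to 1 with a colony left out (0 when the colony was tdTOMATO+ or tdTOMATO- replicate 2), and the number of mitogen response genes called lower was 0 to 1 with a colony left out (*Junb*, without tdTOMATO- replicate 1). The replicate block gave 124 higher and 24 lower over all genes and 0 members. The deviations of same-numbered colonies from their group means correlated at r = 0.1, 0.0123 and 0.2 for numbers 1, 2 and 3 (11672 genes), against -0.152 to 0.0866 for other pairs. Numbers 3 and 1 had the highest values of all pairs, whereas tdTOMATO+ replicate 2 was closest to tdTOMATO- replicate 1 (r = 0.0866). These values do not settle whether same-numbered colonies were paired. The labels name no pairing, so the number was used only in the block.

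With equal totals the median log2 fold change of the other cyclins and CDKs was 0.16. With a colony left out the medians changed sign for CDC25 phosphatases and SKP2 (-0.23 to 0.038), CIP/KIP inhibitors (-0.027 to 0.20), activator E2Fs (-0.13 to 0.011), repressor E2Fs (-0.11 to 0.014) and transcriptional genes (-0.033 to 0.089). They kept their sign for D and E cyclins (-0.21 to -0.065), A, B and F cyclins (-0.22 to -0.039), cell cycle CDKs (-0.085 to -0.020), INK4 inhibitors (0.056 to 0.17), pocket proteins (0.00084 to 0.19) and other cyclins and CDKs (0.043 to 0.11). Of the 59 named genes, edgeR, limma without trend, the other pseudocount, the filter, TMM and the block reversed none, DESeq2 reversed *Cdc25b* (-0.0034) and equal totals *Rbl2* (0.00892). Leaving out a colony reversed 13, with ranges of -0.19 to 0.00066 for *Ccna2*, -0.15 to 0.17 for *Ccnd2*, -0.17 to 0.19 for *Ccnf*, -0.15 to 0.16 for *Cdc25b*, -0.017 to 0.037 for *Cdk4*, -0.027 to 0.24 for *Cdkn1b*, -0.13 to 0.011 for *E2f1*, -0.045 to 0.070 for *E2f4*, -0.11 to 0.021 for *E2f6*, -0.13 to 0.13 for *E2f8*, -0.043 to 0.71 for *Egr1*, -0.037 to 0.19 for *Rbl1* and -0.055 to 0.00084 for *Rbl2*. *Cdk6* and *Rb1* were higher in tdTOMATO+ CFU-Fs under every alternative run, and *Rb1* passed with DESeq2 only (adjusted p = 0.0495, 0.102 to 0.348 under the others). *Trp53inp1* kept its direction but not its call without trend (adjusted p = 0.092) or with the replicate block (0.0503), and *Mdm2* passed with the block (0.0397), DESeq2 and equal totals. The causes of these differences were not tested. With 3 colonies a group no exact test of 1 gene can pass, and bulk colonies give no count of dividing cells.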
